A study of Danio rerio with 8 samples.

Results

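The transcriptome described here is that of GFP-positive cells sorted from unlesioned zebrafish larvae in which the pdgfrb promoter drives the reporter. It comprises 4 RNA-seq libraries, unlesioned 1 to 4, chosen by their label from the 8 libraries of the series. The remaining 4 came from larvae of the same line with a mechanical spinal cord lesion and were not analysed here. All larvae carried BAC(pdgfrb:Gal4ff)ncv24;UAS:GFP, a bacterial artificial chromosome that expresses the Gal4ff activator from pdgfrb regulatory sequence together with a GFP gene under UAS control, and were 4 days old, counted from fertilization. The tissue was dissociated with trypsin, GFP-positive cells were taken by FACS (fluorescence-activated cell sorting), and their RNA was turned into cDNA by SMART-seq2 and sequenced on a NextSeq500. The labels describe the cells as myoseptal and perivascular, without separating these kinds. They do not give the number of larvae or cells in a library, and do not say whether the libraries came from separate animals or clutches, so the spread between libraries may be technical. GFP reports the activity of the transgene, and a cell that once had it can keep the protein.

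PDGFRB is a receptor tyrosine kinase for platelet-derived growth factors. It is used as a marker of mural cells, that is, the pericytes of small vessels and the smooth muscle cells of larger ones, and also of many fibroblasts. Myosepta are the collagenous sheets between the muscle segments of the fish trunk, where fibroblasts and tenocytes derived from the sclerotome lay down the matrix that anchors muscle fibres. In these mixed sorted cells, fewer cells of a type and less RNA per cell cannot be told apart.

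Total gene counts were 21356630, 19552807, 25358885 and 22101332 in unlesioned 1 to 4. Genes with a count numbered 19343 to 20125 per library, and 10657 genes reached 1 CPM (counts scaled to a library total of 1000000) in every library. Genes of the mitochondrial genome took 8.91%, 8.98%, 16.5% and 13.8% of counts in unlesioned 1 to 4, so unlesioned 3 and 4 lay above 1 and 2. Reads from synthetic spike-in RNAs were few and uneven, with 2, 0, 158 and 87 counts. For comparison between genes, counts were divided by exon length and scaled to a total of 1000000 over the 31864 nuclear genes (TPM). On that scale 15208 nuclear genes had a mean of at least 1 TPM, 7304 of at least 10, 1493 of at least 100 and 159 of at least 1000. Counts of list members at these levels, given below, are to be read beside these counts out of 31864. The median nuclear gene stood at 0.797 TPM. A count of 0 in a library allows a level of up to 0.118 to 0.153 CPM (3 counts), a limit that covers counting error only.

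The gene that defines the reporter was present in every library at a moderate and even level. On GRCz11, pdgfrb (ENSDARG00000100897) maps to chromosome 14, minus strand, between 3186485 and 3268155. Its level was 63.4, 69.6, 62.8 and 55.7 TPM in unlesioned 1 to 4, a mean of 62.9 ± 5.66 TPM (SD, n = 4), from 3766 to 4691 counts per library. Its coefficient of variation (CV) of 14.3% in CPM lay below the first quartile of 17.7% for genes at 100 to 1000 CPM, and it ranked 2224 among nuclear genes by mean TPM. The sister receptor gene pdgfra (ENSDARG00000070494, minus strand of chromosome 20 from 22435180 to 22476255), which marks fibroblasts, had 136, 205, 224 and 164 TPM. It stood above pdgfrb in each library, by 2.15, 2.94, 3.57 and 2.95 times in TPM.

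The product genes were far more abundant per length than the receptors. The gene tgfbi (ENSDARG00000071586, minus strand of chromosome 14 from 26511041 to 26536504) encodes a secreted matrix protein that binds collagen and integrins. It reached 3950, 3797, 6664 and 1168 TPM, highest in unlesioned 3 and lowest in unlesioned 4. Of the collagen I genes, col1a1a (ENSDARG00000012405, plus strand of chromosome 3 from 23221047 to 23239458) stood at 2694, 2654, 1588 and 1116 TPM, with unlesioned 1 and 2 alike and above the rest. The smooth muscle actin gene acta2 (ENSDARG00000045180, plus strand of chromosome 12 from 17100021 to 17116481) had 7651, 6097, 3399 and 12539 TPM. Here the extremes of tgfbi were exchanged, with unlesioned 4 highest and unlesioned 3 lowest. The growth factor gene mdka (ENSDARG00000036036, plus strand of chromosome 7 from 39166460 to 39178198), which encodes the heparin-binding midkine, was the most even of the 6 markers with 1162, 1219, 1073 and 1195 TPM. Means were 3895 ± 2245 TPM for tgfbi, 2013 ± 787 TPM for col1a1a, 7422 ± 3838 TPM for acta2 and 1162 ± 63.9 TPM for mdka (SD, n = 4 each).

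**Figure D1:**
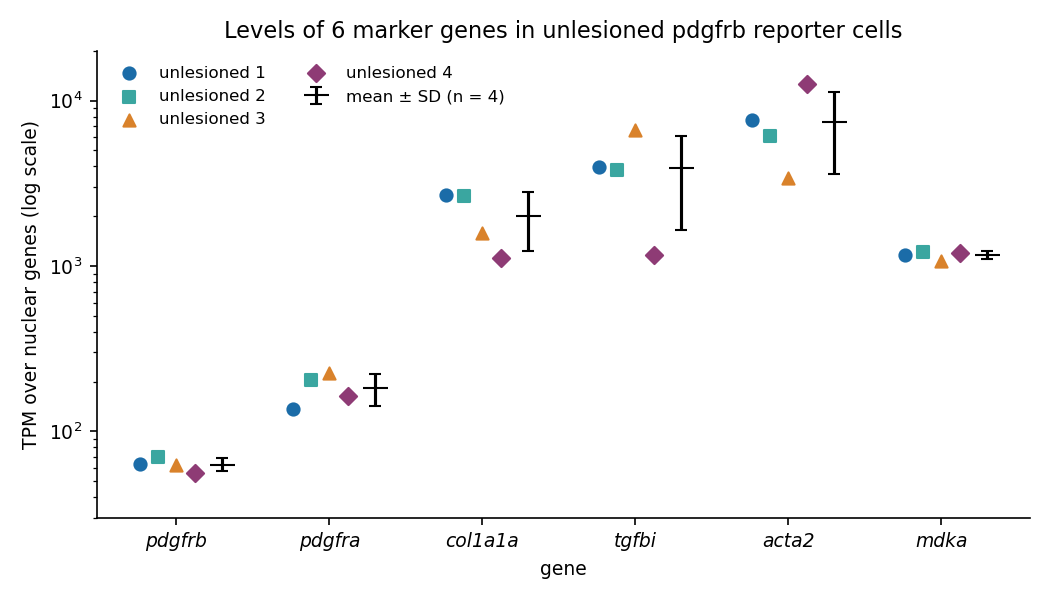
Level of the 6 marker genes in TPM over nuclear genes (log axis), with 1 point per library and the mean ± SD of 4 libraries in black. The points of pdgfrb and mdka lie close together, while those of tgfbi spread from 1168 to 6664 TPM and those of acta2 from 3399 to 12539 TPM.

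By mean TPM the markers ranked in the order acta2, tgfbi, col1a1a, mdka, pdgfra and pdgfrb. Neighbours among the first 4 overlapped in range. The ratio of tgfbi to acta2 in TPM was 0.516, 0.623, 1.96 and 0.0931 in unlesioned 1 to 4, so the 2 genes changed places in unlesioned 3. The ratio of col1a1a to acta2 was below 1 in each library, at 0.352, 0.435, 0.467 and 0.0890. The 4 more abundant markers lay above pdgfra and pdgfrb in every library, and pdgfra above pdgfrb.

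The most abundant nuclear genes per length included ribosomal protein genes, stress and immediate early genes, actins and a few secreted products, beside many of other kinds. The 50 most abundant genes held 24.9 ± 0.836% of nuclear TPM (SD, n = 4). The 50 were put in classes by membership of the gene lists or, for ribosomal protein and actin genes, by symbol. Of these 50, 18 encode ribosomal proteins, 7 belong to the list of immediate early and heat shock genes and 5 are contractile or actin genes. Of the rest, 1 is on the matrix lists (tgfbi) and 1 on the 2 lists of secreted factors (cxcl18b). The other 18 fall in none of these classes and held 9.87% of nuclear TPM, beside 8.33% for the 18 ribosomal protein genes. They include further genes of secreted products, such as cfd, rbp4 and insl5a. The top place was held by si:dkey-151g10.6 with 16209, 17382, 14618 and 11485 TPM. It was followed by malat1, a long non-coding RNA kept in the nucleus, with 9779, 9888, 20032 and 14748 TPM, which was highest in unlesioned 3. By counts alone malat1 came first among nuclear genes, with 3.24%, 3.29%, 5.81% and 4.44% of all counts. Genes of the mitochondrial genome are outside this ranking.

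Cytoplasmic actins were abundant in each library. The gene actb2 had 8989, 9951, 4673 and 7378 TPM and actb1 had 5468, 6138, 2904 and 4652 TPM, both lowest in unlesioned 3. The actin-sequestering peptide gene tmsb4x stood at 4540, 4911, 1624 and 4826 TPM, again lowest there. Syndecan 4, a cell surface heparan sulfate proteoglycan that takes part in adhesion to fibronectin, had 5070, 4568, 8200 and 6788 TPM (sdc4), and unlesioned 3 was highest. The prothymosin gene ptmab had 6584 ± 1281 TPM, and slc25a5, a carrier that exchanges ADP and ATP across the inner mitochondrial membrane, 5251 ± 820 TPM (SD, n = 4 each). Among genes without a descriptive name, si:ch211-251b21.1 had 7061, 9152, 15609 and 8357 TPM and zgc:162730 had 7485, 8079, 1695 and 5292 TPM.

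**Figure D2:**
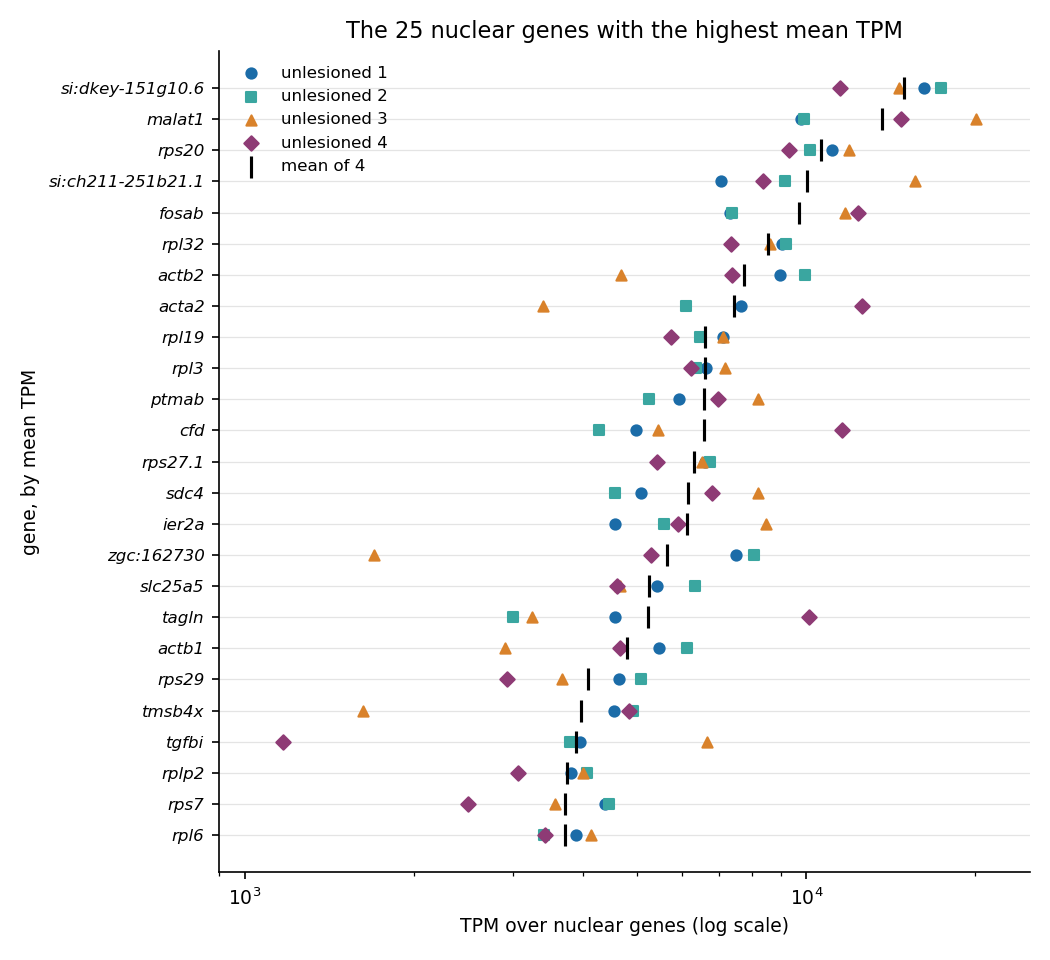
The 25 nuclear genes of highest mean TPM, with 1 symbol per library on a log axis and the mean as a black bar. The points of the ribosomal protein genes rpl3 and rps20 lie in tight groups, while those of acta2, cfd, tagln, tgfbi, tmsb4x and zgc:162730 spread more widely.

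Ribosomal protein genes, 84 of them, held 16.7%, 17.7%, 13.5% and 11.8% of nuclear TPM. They largely shared the same extreme libraries. All 84 had a mean of at least 1 TPM, and 72 of them were highest in unlesioned 2 and 65 lowest in unlesioned 4, where 19.1% and 21.1% of the 15208 nuclear genes at that level were highest and lowest. The most abundant was rps20 with 11102, 10131, 11913 and 9328 TPM. An exception to this common level, chosen after its values were seen, was rps2, with 6330 and 6413 TPM in unlesioned 1 and 2 against 430 and 361 TPM in unlesioned 3 and 4.

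Genes of the fibroblast list, which was chosen with earlier results of these data known, were present nearly without exception. All 36 genes of the fibroblast list were measured, and the median of their means was 213 TPM. A mean of at least 1 TPM was reached by 34 and of at least 100 TPM by 27, beside 15208 and 1493 of all 31864 nuclear genes. Beside tgfbi and col1a1a the most abundant were postnb, sparc, fmoda and col1a2, described with the matrix below. Transcription factors of mesenchyme in this list include twist1a with 764, 705, 181 and 177 TPM and, chosen after its values were seen, prrx1a with 164, 140, 209 and 54.5 TPM. For prrx1a unlesioned 4 was lowest, while for twist1a unlesioned 1 and 2 lay about alike and above 3 and 4. The fibroblast list held 2.17%, 2.34%, 2.19% and 1.34% of nuclear TPM, and 21 of its 34 members at 1 TPM or more were lowest in unlesioned 4, as were 21.1% of all nuclear genes at that level.

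Tenocyte and sclerotome genes, which mark the lineage of myoseptal cells, were present at lower levels. Of 34 symbols 29 were measured and 28 of these reached a mean of 1 TPM, with a median of 25.4 TPM. The early growth response factor egr1, which acts in tendon cells and is also an immediate early gene, was the most abundant with 735 ± 84.3 TPM. The tendon glycoprotein gene thbs4b had 426, 527, 538 and 388 TPM. The gene for tenomodulin, tnmd, a membrane protein of mature tendon, had 180, 371, 468 and 111 TPM, with unlesioned 2 and 3 above 1 and 4. Also on this list, ccn2a, a matricellular growth regulator, had 394 ± 144 TPM, cilp, a cartilage intermediate layer protein, 255 ± 104 TPM, and angptl7, an angiopoietin-like secreted protein, 449 ± 270 TPM (SD, n = 4 each). Chosen after its values were seen, the tendon transcription factor gene scxa stood at 47.2, 61.7, 55.0 and 36.9 TPM. The list held 0.327%, 0.398%, 0.420% and 0.234% of nuclear TPM, with 17 of 28 members lowest in unlesioned 4, or 60.7%, beside 21.1% of all nuclear genes at 1 TPM or more.

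The contractile genes of smooth muscle were abundant as well, and more uneven between libraries. Of 39 symbols 33 were measured, 31 had a mean of at least 1 TPM and 19 of at least 100 TPM, with a median of 114 TPM. After acta2 came tagln, the actin-binding transgelin, with 4556, 3001, 3240 and 10123 TPM. The myosin light chain genes myl6 and myl9b had 2130, 1574, 1272 and 4608 TPM and 1565, 1457, 865 and 2605 TPM. In each of these genes unlesioned 4 was highest, and in the myosin genes unlesioned 3 was lowest. Calponin 2 (cnn2), an actin-binding protein also found outside muscle, did not follow this order and had 1639, 1725, 1539 and 1338 TPM. The smooth muscle myosin heavy chain gene myh11a, chosen after its values were seen, had 524, 416, 308 and 1171 TPM, and the calponin copy cnn1a had 0 counts in every library. The list held 2.56%, 2.09%, 1.40% and 4.36% of nuclear TPM. Unlesioned 4 was highest for 21 and unlesioned 3 lowest for 23 of 31 members, against 31.9% and 34.1% of all nuclear genes at 1 TPM or more. The actin genes of the table are near-identical in coding sequence, so the split of reads between acta2 and the other muscle actins is uncertain.

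Pericyte genes were detected but at modest levels. Of 38 symbols 34 were measured, 30 reached a mean of 1 TPM and 7 reached 100 TPM, with a median of 16.7 TPM. The regulator of G-protein signalling rgs5a, a classical pericyte marker, had 223, 336, 251 and 600 TPM, highest in unlesioned 4. Its paralog rgs5b had 143, 132, 461 and 130 TPM, highest in unlesioned 3. The forkhead factor gene foxf2a, which acts in brain pericytes, stood at 114, 91.0, 41.3 and 352 TPM, and rgs4 had 80.2, 83.0, 176 and 226 TPM. The endosialin gene cd248a had 146, 209, 51.0 and 107 TPM, and the potassium channel subunit gene kcne4 had 253, 191, 14.8 and 41.8 TPM, so the members differed in which library was highest. Several other defining pericyte genes, chosen after their values were seen, were low. The potassium channel pair kcnj8 and abcc9 stood at 10.1 ± 5.12 and 2.86 ± 1.27 TPM, the proteoglycan gene cspg4 at 1.59 ± 0.981 TPM and the transcription factor gene tbx18 at 2.02 ± 1.29 TPM, while the receptor gene notch3 had 24.9 ± 4.51 TPM (SD, n = 4 each). Low members of the fibroblast list were not picked out in this way, so these chosen genes do not compare the lists. The pericyte list held 0.157%, 0.172%, 0.163% and 0.204% of nuclear TPM.

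To set these identities side by side, the median over list members of log2(TPM + 1) was taken in each library. The fibroblast median lay above the pericyte median by 3.57, 3.40, 4.42 and 3.37 in unlesioned 1 to 4, a mean difference of 3.69 ± 0.49 on the log2 scale (SD, n = 4; 36 and 34 genes). It lay above the smooth muscle median by 0.60, 1.57 and 1.595 in unlesioned 1 to 3 and below it, at -0.47, in unlesioned 4, a mean of 0.83 ± 0.98 (36 and 33 genes). Without unlesioned 4 that mean was 1.26. The order of fibroblast over pericyte genes therefore held in 4 of 4 libraries, while that of fibroblast over smooth muscle genes held in 3 of 4 and its mean was smaller than its SD. No p-value is attached, since genes of a list are not replicates and 4 libraries cannot reach 0.05 in an exact sign test. The lists hold different genes and were chosen with earlier results of these data known. The differences therefore also depend on which genes stand for a cell type.

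**Figure D3:**
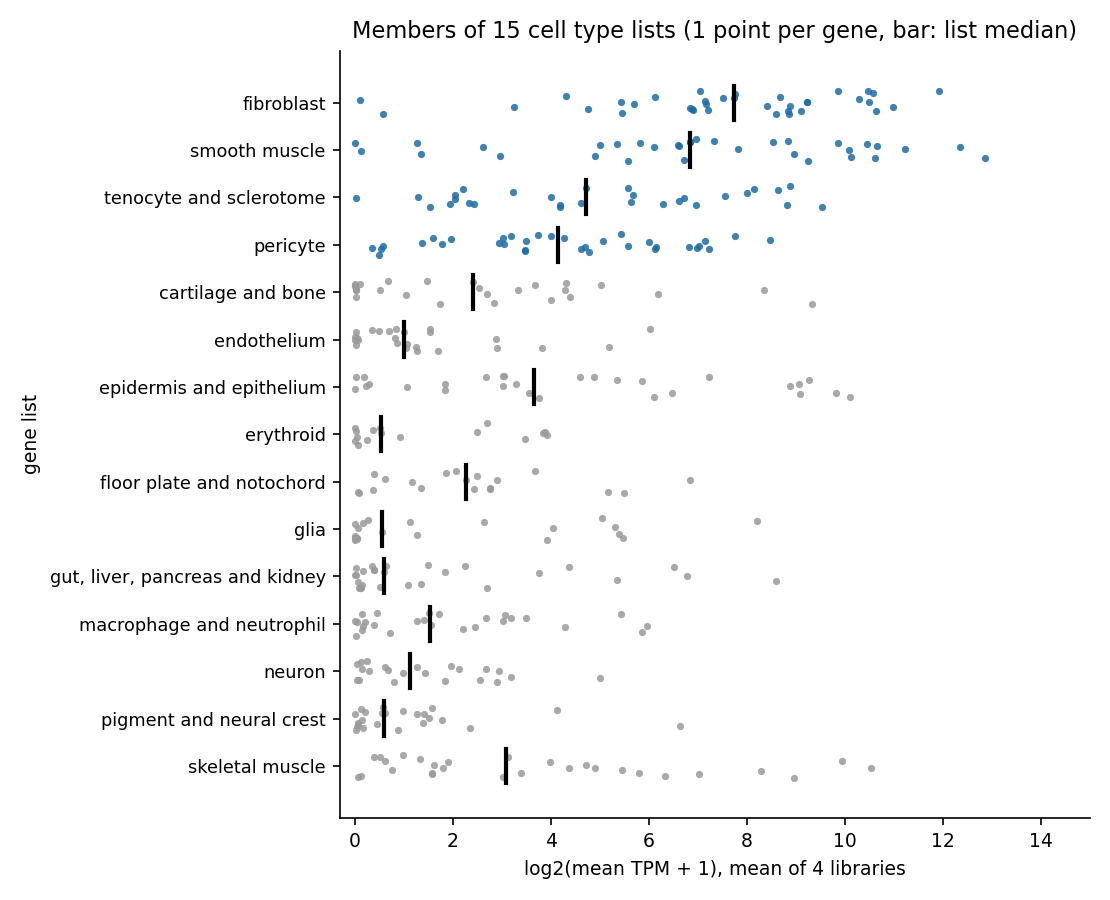
Members of 4 identity lists (blue) and 11 lists of markers of other cell types (grey) by log2(mean TPM + 1) over 4 libraries, with 1 point per measured gene and the list median as a black bar. The fibroblast median is furthest right, followed by smooth muscle, tenocyte and sclerotome, and pericyte, and the grey medians lie to the left of these 4.

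Matrix genes were expressed across all classes, with collagen I, tgfbi and other glycoproteins in front. The union of 5 matrix lists (collagens of 2 kinds, basement membrane, glycoproteins and proteoglycans) has 174 measured genes, of which 131 had a mean of at least 1 TPM, 34 of at least 100 TPM and 9 of at least 1000 TPM. Together they held 2.88%, 3.16%, 3.03% and 1.87% of nuclear TPM, a mean of 2.73 ± 0.588% (SD, n = 4), with unlesioned 4 lowest. As a share of nuclear counts, where long transcripts weigh more, the mean was 5.50%. Of the 131 members at 1 TPM or more, 57 were lowest in unlesioned 4, or 43.5%, beside 21.1% of all nuclear genes at that level.

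Fibril-forming collagens were led by type I. The chains col1a2 and col1a1b had 1357, 1686, 1512 and 1143 TPM and 1336, 1632, 1030 and 986 TPM, so all 3 collagen I genes stood near or above 1000 TPM in every library. Collagen V, which nucleates type I fibrils, followed with col5a1 at 595 ± 159 TPM and col5a2a at 386 ± 58.9 TPM. The minor fibril chain col11a1b had 208 ± 84.6 TPM. Of 15 measured members 11 had a mean of at least 1 TPM, and 9 of these 11 were lowest in unlesioned 4, or 81.8%, beside 21.1% of all nuclear genes at that level. The 3 most abundant held 76.3% of the list's TPM. Collagen II, the fibril of cartilage and notochord sheath, was split between its copies, both chosen after their values were seen, with col2a1b at 206 ± 63.7 TPM and col2a1a at 4.29 ± 2.96 TPM.

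Collagens outside the fibrils did not share 1 order of libraries. Of 17 members with a mean of at least 1 TPM, 8 were lowest in unlesioned 4 and 7 highest there, or 47.1% and 41.2%. Of all nuclear genes at that level, 21.1% were lowest and 31.9% highest in unlesioned 4. The microfibril collagen VI chains col6a1 and col6a2 had 463, 521, 315 and 890 TPM and 101, 120, 109 and 260 TPM. Unlesioned 4, lowest for most fibril collagens, was highest for both. Their partner chain col6a3 stood at 58.1, 54.5, 39.5 and 51.3 TPM without that step. The fibril-associated chain col12a1a, typical of dense connective tissue, had 75.2, 108, 69.0 and 54.4 TPM and col16a1 had 49.0, 70.25, 64.3 and 32.3 TPM. Both were lowest in unlesioned 4, like most fibril collagens.

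Basement membrane genes were low apart from sparc, a collagen-binding glycoprotein that is also found in interstitial matrix. It had 1285, 1696, 1478 and 1317 TPM. Below it came the collagen IV chains col4a6 with 158 ± 44.2 TPM, col4a5 with 92.1 ± 42.6 TPM and col4a1 with 89.95 ± 14.7 TPM, and the linker nid1a with 112 ± 36.2 TPM. The list of 36 measured genes held 0.219%, 0.274%, 0.244% and 0.242% of nuclear TPM, and unlesioned 4 did not stand apart.

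Glycoproteins made up more than any other matrix list, 1.499 ± 0.409% of nuclear TPM, of which the 3 most abundant genes held 51.4%. After tgfbi came mfap2, a component of elastic microfibrils, with 2488, 2768, 1437 and 1404 TPM. The tenascin gene tnn had 1788, 2036, 2427 and 888 TPM. Periostin, a matricellular protein of collagen-rich tissue, was more even, with 1407, 1947, 1563 and 1419 TPM for postnb. The matrilin gene matn4 had 620, 817, 864 and 255 TPM. These genes did not share one order of libraries, but unlesioned 4 was lowest for tgfbi, mfap2, tnn and matn4. Of 72 measured members 60 had a mean of at least 1 TPM, and 3 had 0 counts in every library, the vitronectin gene vtna, emilin3a and ecm1a.

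Small leucine-rich proteoglycans, which bind collagen and set fibril width, led the proteoglycan list. The fibromodulin gene fmoda had 1695, 1816, 1561 and 1042 TPM, decorin (dcn) 1152, 1163, 754 and 626 TPM and lumican (lum) 641, 498, 497 and 249 TPM. All 3 were lowest in unlesioned 4. Osteoglycin (ogna) stood at 338 ± 92.1 TPM, the hyaluronan link protein hapln1a at 327 ± 124 TPM and prelp at 211 ± 161 TPM, the last with 436 TPM in unlesioned 3 and 51.7 TPM in unlesioned 4. Of 32 measured members 18 had a mean of at least 1 TPM, not far above the share over all nuclear genes, 15208 of 31864. The biglycan copy bgna and the aggrecan copy acanb had 0 counts in every library.

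The machinery that makes collagen was present alongside. The collagen chaperone gene serpinh1b had 2123, 2939, 2924 and 1032 TPM, lowest in unlesioned 4. The prolyl isomerase ppib had 889 ± 181 TPM, the procollagen C-proteinase enhancer pcolcea 410 ± 114 TPM, and crtap and fkbp9, which take part in collagen folding, 265 ± 83.9 and 246 ± 71.2 TPM. The prolyl hydroxylase subunit p4ha2 had 197 ± 98.7 TPM. Of 43 measured genes of collagen processing and cross-linking 34 reached a mean of 1 TPM. The cross-linking enzyme gene loxa, chosen after its values were seen, varied widely, with 180, 297, 29.6 and 52.7 TPM.

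Proteases of the matrix and their inhibitors were both expressed. The serpin gene serpinf1, whose product is also known as PEDF, had 1253, 1500, 1216 and 647 TPM. Gelatinase A (mmp2) had 625, 712, 619 and 429 TPM, its inhibitor timp2a 354, 333, 425 and 333 TPM and the lysosomal protease cathepsin L (ctsla) 697, 861, 916 and 645 TPM. In CPM the CV of these 3 was 24.3%, 8.77% and 16.6%. The other copy timp2b, chosen after its values were seen, was uneven. It had 61.5, 61.9, 278 and 34.5 TPM, with a CV of 97.4% in CPM.

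Growth factors, chemokines and modulators of signalling held 1.604%, 1.66%, 1.82% and 1.91% of nuclear TPM, a mean of 1.75 ± 0.143% over 193 measured genes (SD, n = 4). Of these 149 had a mean of at least 1 TPM and 4 of at least 1000 TPM. The most abundant of these listed genes was the chemokine gene cxcl18b with 3074, 3510, 3747 and 4435 TPM. It was followed by angptl4, an inhibitor of lipoprotein lipase, with 2104, 1599, 3728 and 1916 TPM. The hormone gene insl5a, chosen after its values were seen, is on neither list. It had 999, 523, 2790 and 6827 TPM, a mean of 2785 TPM beside 2337 TPM for angptl4, and lay above angptl4 only in unlesioned 4. The chemokine gene cxcl14 had 1382, 1217, 430 and 2510 TPM, lowest in unlesioned 3 and highest in unlesioned 4.

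Both midkine genes were expressed. Beside mdka, its paralog mdkb (plus strand of chromosome 25 from 7872135 to 7880878) had 551, 660, 546 and 728 TPM. The ratio of mdka to mdkb in TPM was 2.11, 1.85, 1.96 and 1.64, so the former was the higher in every library. The interleukin 8 gene cxcl8a, a chemokine that attracts neutrophils, was uneven, with 106, 220, 1002 and 1736 TPM. Beyond the 6 most abundant, and chosen after their values were seen, ccl25b had 357 ± 42.2 TPM, bmp4 206 ± 37.96 TPM, igf2b 113 ± 51.0 TPM, tgfb3 83.0 ± 18.8 TPM and tgfb1a 70.6 ± 18.3 TPM (SD, n = 4 each). Of the measured PDGF ligand genes, also chosen after their values were seen, pdgfab had 137, 134, 113 and 229 TPM, while pdgfba, pdgfbb, pdgfc and pdgfd had means of 0.674 to 3.85 TPM. Genes at 0 in every library numbered 8 of 124 growth factors and cytokines, among them il6 and npy.

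Modulators of Wnt, BMP and IGF signalling were led by fstl1b, a secreted follistatin-like protein, with 425, 414, 472 and 508 TPM. The ligand gene wnt11 stood at 388, 353, 108 and 155 TPM, higher in unlesioned 1 and 2. The BMP and activin pseudoreceptor genes bambia and bambib each had a mean of 129 TPM. Of 69 measured members 55 reached a mean of 1 TPM, and wnt1, wnt8a, wnt10b and igfbp6b had 0 counts in every library. Axon guidance cues were low, at 0.0964 ± 0.0161% of nuclear TPM for 36 genes. The highest was the semaphorin gene sema3d with 116, 104, 96.0 and 227 TPM, followed by the repulsive guidance molecule gene rgmd with 92.8 ± 18.3 TPM and the netrin gene ntn5 with 60.7, 64.3, 46.2 and 185 TPM. For sema3d and ntn5 unlesioned 4 was highest, and sema3h had 0 counts in every library.

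Secreted carriers and related proteins held 1.305 ± 0.326% of nuclear TPM, nearly all of it in few genes. Complement factor D (cfd), a serine protease of the alternative complement pathway, had 4980, 4280, 5439 and 11574 TPM, highest in unlesioned 4. Retinol-binding protein (rbp4) had 2725, 2614, 3387 and 2788 TPM and was even between libraries, and selenoprotein P (selenop), a selenium carrier, had 1214 ± 210 TPM (SD, n = 4). The 3 together held 81.7% of the list.

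**Figure D4:**
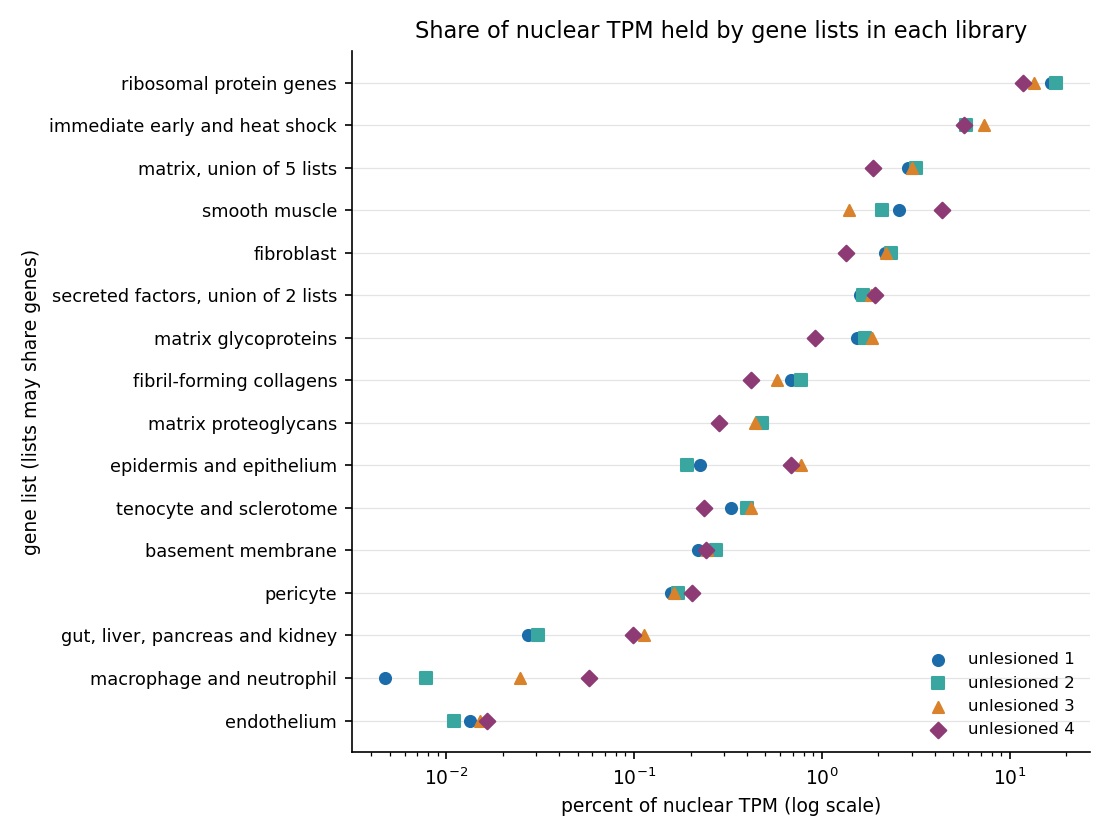
Share of nuclear TPM held by 16 gene lists, on a log axis, with 1 symbol per library. Unlesioned 4 is lowest for fibroblast, matrix and tenocyte genes and highest for smooth muscle and pericyte genes, and unlesioned 3 and 4 lie right of 1 and 2 for epidermis, gut and leukocyte markers.

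Transcription factors of mesenchyme were broadly present, with 74 of 83 measured genes at a mean of 1 TPM or more, beside 15208 of all 31864 nuclear genes. The inhibitors of helix-loop-helix factors id3 and id1 had 987 ± 169 and 593 ± 141 TPM (SD, n = 4 each). Of the exon bases of id1, 48.8% are shared with another gene, so its level is uncertain. The factor hand2, known in visceral and heart mesoderm and in trunk mesenchyme, had 815, 567, 585 and 1605 TPM. The forkhead gene foxf1 had 169, 220, 117 and 396 TPM, so both were highest in unlesioned 4. The zinc finger gene snai1a had 308, 390, 256 and 215 TPM. The runt factor gene runx2a and gata4 had 0 counts in every library.

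Among receptors, 53 of 65 measured genes had a mean of at least 1 TPM, and none reached 1000 TPM. The PDGF receptor-like gene pdgfrl had 555, 585, 514 and 204 TPM, lowest in unlesioned 4, and was the highest of the list. The sphingosine phosphate receptor s1pr1 had 204, 181, 414 and 150 TPM, the endothelin receptor ednraa 196, 236, 210 and 236 TPM and the lysophosphatidic acid receptor lpar1 123, 103, 161 and 166 TPM. Of these ednraa varied least, with a CV of 11.1% in CPM. The BMP receptor bmpr1ba had 96.8, 84.6, 97.7 and 217 TPM. Integrins held 0.0449 ± 0.0121% of nuclear TPM. Their most abundant member was the beta 1 subunit gene itgb1b.2 with 73.4, 85.8, 75.8 and 250 TPM, followed by itgb1a with 49.0 ± 18.4 TPM and the fibronectin receptor subunit itga5 with 45.4 ± 14.0 TPM, while itgb3a and itgb7 had 0 counts in every library.

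The immediate early list, with heat shock genes included, holds genes known to be induced quickly by many stimuli, tissue dissociation among them, and its members were among the most abundant of all lists. They held 5.72%, 5.87%, 7.29% and 5.72% of nuclear TPM, a mean of 6.15 ± 0.766% (SD, n = 4), more than the matrix genes in each library. The gap depends on length scaling, since as a mean share of nuclear counts the list held 6.71% and the matrix genes 5.50%. Of 72 measured members 70 had a mean of at least 1 TPM, 49 of at least 100 TPM and 14 of at least 1000 TPM. The Fos gene fosab had 7326, 7386, 11718 and 12353 TPM, and ier2a had 4568, 5569, 8459 and 5917 TPM. The stress transcription factor atf4b was even, with 3337, 3649, 3423 and 3641 TPM, as was the constitutive chaperone hspa8 with 3013, 2708, 3669 and 2939 TPM. Exon bases shared with another gene make up 26.8% of fosab, so its level is uncertain. Chosen after its values were seen, junbb had 3942 and 4348 TPM in unlesioned 1 and 2 against 184 and 488 TPM in unlesioned 3 and 4, and jun 1851 and 2104 against 88.8 and 182 TPM. How much of this level arose during dissociation was not tested.

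Genes that mark 11 other kinds of cells were also read, and the medians of their 11 lists lay between 0.437 and 11.7 TPM, beside 16.7 TPM for the pericyte list. These are medians of means over 4 libraries, and for epithelial markers the order was not the same in each. The median of the epithelial list was 10.1, 2.41, 16.5 and 19.6 TPM in unlesioned 1 to 4, and that of the pericyte list 15.9, 25.6, 9.98 and 15.6 TPM, so epithelial markers stood above pericyte genes in unlesioned 3 and 4. In unlesioned 4 they also stood above the tenocyte and sclerotome list, whose median there was 18.5 TPM. Endothelial markers held 0.0140 ± 0.00235% of nuclear TPM, with 12 of 25 at a mean of 1 TPM or more, kdrl, a vascular endothelial growth factor receptor, at 5.48, 11.2, 1.88 and 7.22 TPM, and tal1 and lyve1b at 0 counts. Neuronal markers held 0.00781 ± 0.000795%, with 11 of 22 at 1 TPM or more and tubb5 highest at 31.2 ± 17.7 TPM. The endothelial and neuronal counts at 1 TPM lay near the share over all nuclear genes, 15208 of 31864. Erythroid markers held 0.00635 ± 0.00120%, with hbae5 and hbbe3 at 0 counts, and pigment and neural crest markers 0.0133 ± 0.00504%, with the melanin synthesis gene dct at 0 counts. Glial markers held 0.0489 ± 0.0124%, of which the glutamine synthetase gene glula, also used outside glia, made up the most with 296 ± 156 TPM. The glial fatty acid-binding protein gene fabp7a had 140 TPM in unlesioned 2 against 3.57 to 13.5 TPM in the other libraries. Further glial genes, named after their values were seen, were also highest in unlesioned 2, gfap with 0.1197, 111, 16.3 and 0.127 TPM, slc1a2b with 0.641, 18.2, 1.92 and 0.131 TPM, atp1a1b with 8.25, 38.0, 8.95 and 1.72 TPM and sox2 with 0, 5.44, 0.0982 and 0.0542 TPM. Not all glial list members were highest there. The genes glula and her4.1 were highest in unlesioned 3, with 509 and 53.1 TPM. In unlesioned 4 mbpb and egr2b were highest, with 70.5 and 28.8 TPM, and in unlesioned 1 plp1b, with 2.66 TPM. On the same list olig1, olig2, olig4 and cldnk had 0 counts. Cartilage and bone markers held 0.119 ± 0.0472%, mainly matn4 and hapln1a, which are also matrix list members, with runx2a, bglap and acanb at 0 counts. Floor plate and notochord markers held 0.0244 ± 0.00964%, led by twist2, which is also on the fibroblast list. Skeletal muscle markers held 0.355%, 0.429%, 0.193% and 0.506%. The most abundant were the actin genes acta1a, acta1b and actc1b and the parvalbumin gene pvalb1, the last with 241, 741, 213 and 53.4 TPM. The 3 most abundant genes held 79.9% of the list's TPM. The split of reads between acta2 and the other muscle actins is uncertain, so this list's share is uncertain too.

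Epithelial markers differed clearly in amount between libraries. They held 0.224%, 0.191%, 0.775% and 0.687% of nuclear TPM, so unlesioned 3 and 4 lay above 1 and 2, and 23 of 28 had a mean of at least 1 TPM. The surface keratin krt4 had 157, 47.9, 1328 and 2080 TPM and the basal epidermal keratin krt5 26.4, 3.82, 607 and 1534 TPM. The adhesion molecule epcam, chosen after its values were seen, had 166, 78.7, 1352 and 545 TPM. In contrast krt8, a keratin of simple epithelia, was even at 636, 590, 674 and 567 TPM. Markers of gut, liver, pancreas and kidney held 0.0273%, 0.0308%, 0.113% and 0.0986%. The most abundant of them, gcga, was present in every library, with 248, 296, 406 and 590 TPM. The insulin gene ins had 0, 0.237, 262 and 174 TPM, and the cadherin gene cdh17 had 3.69, 0, 354 and 4.14 TPM. The leukocyte list held 0.00474%, 0.00782%, 0.0247% and 0.0575%. Its most abundant member by mean, cxcr4b, had 12.3, 27.8, 159 and 47.3 TPM. The lysozyme gene lyz had 229 TPM in unlesioned 4 and at most 0.572 TPM elsewhere, and 68.7% of its exon bases are shared with another gene. Of 16 leukocyte list members at a mean of 1 TPM or more, 18.8% were highest in unlesioned 3 and 81.2% in unlesioned 4. Of all nuclear genes at that level, 26.2% and 31.9% were. On the epithelial, gut and leukocyte lists, pkp1a, pax8 and mpeg1.2 had 0 counts in every library. What these markers contribute to the other levels of unlesioned 3 and 4 was not tested.

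Similarity between libraries was compared across all genes. Over 14564 genes with a mean of at least 1 CPM, the Spearman rank correlation of log2(CPM + 1), a description across genes that are not independent, was 0.923 between unlesioned 1 and 2 and 0.795 to 0.839 for the other 5 pairs. Unlesioned 1 and 2 were thus the pair of highest correlation. As a check for duplicate deposits, the median chi-square per gene between 2 libraries was 22.7 for unlesioned 1 and 2 and 51.0 to 87.4 for the others, where counting noise alone would give 0.455. That separate samples exceed counting noise at this depth says nothing of how well replicates match. Among 7808 genes with a mean of at least 10 CPM the median CV was 34.1%, against 3.78% from counting alone. Without unlesioned 3 it was 27.5%. Of these genes 15.5% stayed within 1.5-fold over the 4 libraries and 433 differed over 10-fold.

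**Figure D5:**
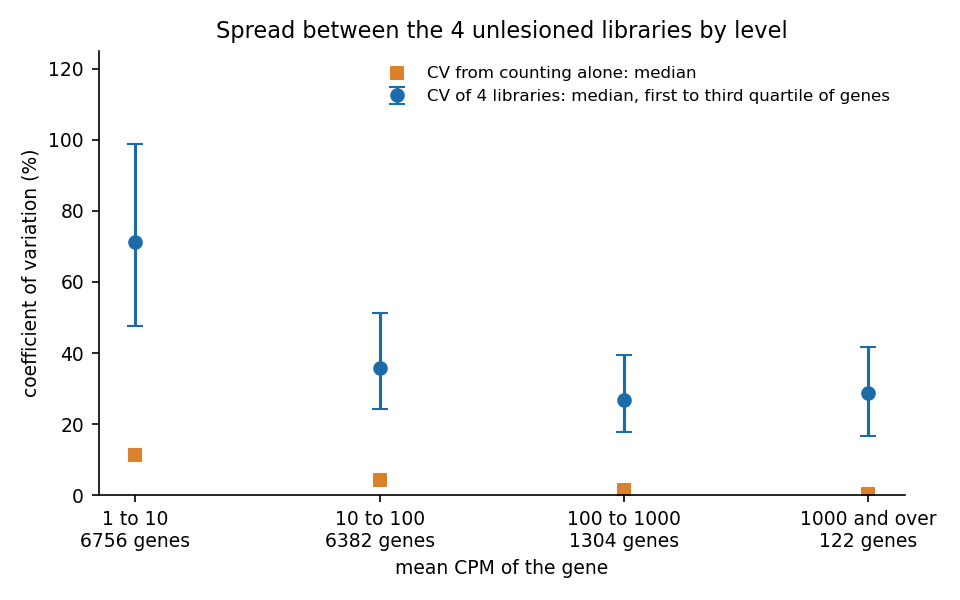
Coefficient of variation of CPM over the 4 libraries (percent), for genes in 4 ranges of mean CPM, as median with lower to upper quartile (blue), and the median that counting alone gives (orange). The median lies between 26.8% and 71.1%, and the counting value between 0.505% and 11.4%.

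Some abundant genes were nearly constant. Among genes with a mean of at least 100 CPM, rab18b, a small GTPase of lipid droplets and the endoplasmic reticulum, had 126, 119, 118 and 122 CPM, a CV of 2.81%. It was followed by the ubiquitin-conjugating enzyme ube2e2, the phosphatase regulator ppp1r10, the kinase clk4a, the desaturase degs1, tspan18a, the GTPase cdc42, the peroxidase gpx4b, the receptor fgfr4 and the laminin chain lamb1a, the last with a CV of 4.97%. The spread of the lists can be read against these. The median CV was 33.1% for fibroblast, 39.4% for tenocyte and sclerotome, 46.1% for pericyte and 51.6% for smooth muscle genes, beside 34.1% for all nuclear genes at 10 CPM or more. That last value is not matched to the lists by level. For all genes the median was 35.7% from 10 to 100 CPM, 26.8% from 100 to 1000 CPM and 28.7% from 1000 CPM.

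The least even abundant genes included several known from epithelia. In CPM, atp1a1a.3, a sodium pump subunit, had 2.39, 2.05, 526 and 2.26 and cdh17 had 5.99, 0, 503 and 6.11. The ion transport regulator fxyd12, si:ch73-359m17.9 and si:ch211-153b23.5, the glutaminase gene glsb and the claudin gene cldnb were likewise highest in unlesioned 3. The keratin gene krt1-19e had 7.49, 1.48, 399 and 1532 CPM, and the epithelial transcription factor elf3 and the claudin gene cldni completed the 10 with the largest CV. All 10 were highest in unlesioned 3 or 4. Among 1411 nuclear genes at a mean of 100 CPM or more, 42 differed over 10-fold between libraries. Unlesioned 1 to 4 held the highest value for 11, 9, 10 and 12 of the 42, beside 21.3%, 32.3%, 21.8% and 24.7% of all 1411. They held the lowest value for 8, 13, 16 and 5 of the 42, beside 10.7%, 15.1%, 41.3% and 32.9% of all 1411. Genes high in unlesioned 1 and 2 were among the 42 too. An example is egr2a, a zinc finger factor chosen after its values were seen, with 300.2, 275, 2.37 and 10.2 CPM. The hormone gene insl5a, chosen in the same way, had 333, 175, 815 and 2069 CPM.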

How the data were processed

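RNA was measured in 4 libraries of sorted unlesioned reporter cells. The deposited table holds raw, unnormalized counts per gene for each library, per the file headers and the values. Per the submitters' processing notes, bcl2fastq 2.19.1, GSNAP 2018-07-04 and featureCounts 1.6.2 were used with the build GRCz11, while per the file headers the counts come from featureCounts 1.6.3 on Ensembl 92 gene models, keeping alignments of mapping quality 1 or more, strand option 0. Strand was thus ignored, and reads of overlapping or antisense genes cannot be told apart. The command in the header sets no option to count reads that map to several places or fall in several genes. Of 31901 genes in the table, 5064 share exon bases with another gene. Of 191 genes named by the rule below 23 do, and 11 of these share over 10% of their bases: lyz, id1 and fosab, and, with 11.1% to 21.9%, cldni, fkbp9, epyc, acta1b, ntn5, myl9a, col6a3 and pnp4a. Levels of these 11 are uncertain. The 92 spike-in entries were left out.

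CPM was computed from the counts over the total of all genes. TPM was computed over nuclear genes from the length column, which is the merged length of all annotated exons, so a gene whose transcripts are shorter is understated. Total counts ranged from 19552807 to 25358885. Reads carry no molecular identifiers, so counting limits cover counting error only. No test between groups was made. Dixon's criterion was applied to values of the 4 libraries, and a chi-square per gene to pairs of libraries as a check for duplicates. The computations ran in Python 3.11.15 with numpy 2.4.6, pandas 2.3.3 and scipy 1.17.1, and were tested on simulated data. TMM factors, an alternative scaling, came from edgeR 4.0.16 under R 4.3.3. Samples were grouped by their titles.

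The table gives identifiers only. Of these, for 16585 the reference table gave a zebrafish symbol, 11013 took the symbol of the gene with at least 2 shared neighbours, among 15 to each side, in a RefSeq annotation of GRCz12tu, 1578 kept a symbol in capitals and 2723 had none. The same procedure, tried on 2656 paralogs whose symbol is known, gave the right symbol for 2580, a wrong one for 11 and none for 65. Of 1151 symbols on the lists 1052 were found.

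The members and the 30 gene lists were chosen with earlier results of these data known. The genes named are the 6 markers, the 25 nuclear genes of highest mean CPM and of highest mean TPM, the 6 most abundant members of each list (4 for other cell types), and the 10 genes of largest and of smallest CV at 100 CPM or more. Where a list of up to 40 symbols has genes at 0 counts, up to 4 are named. Genes at 0 counts named from longer lists were chosen after their values were seen. Alternatives were other scalings, pseudocounts, filters and each library left out in turn. One gene that the rule names is not reported here.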

Additional observations from a re-analysis of the deposited data

Results flagged for a closer look

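Shares of gene lists, other summary values and TPM of named genes were examined, 230 values in all. For 28 of them a single library lay far from the others by Dixon's criterion for 4 samples at the 95% level. Chance alone flags about 1 in 20 such groups, and genes named for a large CV were chosen by their spread.

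In unlesioned 3 the immediate early and heat shock share was 7.29% of nuclear TPM, against 5.72% to 5.87% elsewhere, and within it zfp36l1b, an RNA-binding protein of mRNA decay, had 6544 TPM against 2338 to 2566 TPM. It was lowest for tmsb4x with 1624 TPM, where the others had 4540 to 4911 TPM. This library was highest for 7 genes named for their large CV, atp1a1a.3 at 415 TPM, cdh17 at 354 TPM, fxyd12 at 1047 TPM, cldnb at 1589 TPM, glsb at 173 TPM, si:ch73-359m17.9 at 784 TPM and si:ch211-153b23.5 at 518 TPM. The pericyte gene rgs5b had 461 TPM there, the tetraspanin gene cd9b 112 TPM and the collagen-binding integrin subunit itga11a 60.5 TPM, against highest values of 143, 15.4 and 31.6 TPM in the other libraries.

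Unlesioned 4 was highest for cfd with 11574 TPM, where the others reached 5439 TPM, and lowest for rps27.1 with 5430 TPM. It was highest for the guidance genes sema3d (227 TPM), ntn5 (185 TPM), rgmb (112 TPM) and ntn1a (93.6 TPM), whose next values were 116, 64.3, 79.4 and 42.6 TPM. It was also highest for col6a2 with 260 TPM, bmpr1ba with 217 TPM and itgb1b.2 with 250 TPM. The leukocyte list genes lyz, at 229 TPM, and il1b, a cytokine at 62.0 TPM, stood out in the same library. So did fabp6, a bile acid-binding protein of the gut list, at 138 TPM. That list as a whole did not peak there. Of its 12 members at a mean of 1 TPM or more, 58.3% were highest in unlesioned 3 and 33.3% in unlesioned 4. Of all nuclear genes at that level, 26.2% and 31.9% were.

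By this criterion unlesioned 1 and 2 were flagged for few genes. Unlesioned 2 had 140 TPM of fabp7a, and unlesioned 1 had the lowest level of the neuronal gene sncb, 3.34 TPM, and the highest of the endothelial gene egfl7, 47.8 TPM. The criterion looks for a single library apart from the rest. Genes such as twist1a, where unlesioned 1 and 2 together lay above 3 and 4, are therefore not flagged. The number of flags does not show how far unlesioned 1 and 2 differed from the others.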

How the results depend on the processing

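Of 58 alternative values of 8 summary results, 48 stayed within the spread of the main value and 10 moved further. The number of genes at 1 CPM in every library has no spread, and its 8 alternatives stayed within 1.5 times of it, the highest being 11727 with a minimum of 10 counts. With mitochondrial genes kept in the total, the 50 most abundant genes held 20.3% of TPM, secreted factors 1.42% and immediate early and heat shock genes 5.01%. Without genes that share exon bases these shares were 26.3%, 1.97% and 5.03%. As a share of counts the matrix genes held 5.50%. The median CV was 47.1% for genes from 1 CPM and 26.9% from 100 CPM. Leaving out each library in turn, it ranged from 27.5% (without unlesioned 3) to 35.1%. Over the same omissions the number of genes at 1 CPM in every library ranged from 10942 to 11610, the top 50 share from 24.6% to 25.2%, the matrix share from 2.59% to 3.02%, the secreted share from 1.69% to 1.80%, the immediate early share from 5.77% to 6.30%, the fibroblast minus pericyte difference from 3.44 to 3.79, the fibroblast minus smooth muscle difference from 0.57 to 1.26 and the median rank correlation from 0.792 to 0.833. Of 36 alternative CPM values of the 6 markers 1 moved beyond 1 SD, mdka at 1524 CPM with mitochondrial genes left out of the total. The causes of these shifts were not tested, apart from what each setting changes by construction. No paired analysis was possible because a single group was described. Depth limits the low genes most: from 1 to 10 CPM the median counting CV was 11.4%, beside a median CV of 71.1% between libraries.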
